A study of Danio rerio with 6 samples.

Results

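The 200 most constant well-expressed genes of zebrafish ovarian follicles are the genes whose level varied least across 6 RNA-seq libraries, 3 of primary growth (PG) follicles and 3 of previtellogenic (PV) follicles. They were chosen by their own values in these libraries. In the authors' normalized counts, which are read counts divided by 1 size factor of DESeq2 per library, the genes with a mean of at least 500 over the 6 libraries were kept, the standard deviation was divided by the mean, and the 200 genes with the lowest ratio were taken. The tables held 31540 Ensembl genes, of which 7320 reached the level minimum, so the members made up 2.73% of the well-expressed genes. A gene symbol was found for 198 of the 200. Symbols are spelled as the annotation table gives them, which for 31 members is in capitals only. Since the choice used the spread over both stages, the spread and the stage difference of the members are given as a description, with no test.

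All fish were wild type of the AB strain, and the sources used here state no age, treatment or altered allele. Ovaries of 3 females were pooled for each isolation, and follicles were separated by sieves into PG follicles, which passed the finest mesh, and the larger PV follicles, which the label calls pre-vitellogenin. Both kinds of follicle were taken from the same pools of fish, but no source says that libraries with the same number share a pool. A whole follicle holds the oocyte and the somatic cells around it, and whole follicles were used.

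A follicle leaves the primary growth stage when it is activated. The oocyte then enlarges and forms cortical alveoli, and the follicle cells around it make a continuous layer. In RT-qPCR of such samples the signal of a target gene is divided by that of a reference gene, which is taken to be present at the same level in every sample. Commonly used reference genes encode abundant proteins, such as actins, the elongation factor ef1a, glycolytic enzymes and ribosomal proteins. In RNA-seq the scaling factor of each library takes the place of the reference gene. Size factors of DESeq2 are the median, over genes, of the ratio of a library to the average library, so genes whose change lies at the median change come out flat by construction.

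Totals per library lay between 14492086 and 36603108 counts, lowest in PG replicate 3, and the size factors lay between 0.554 and 1.42. Every member held at least 286 raw counts in every library, and the highest member count was 18521. The summed levels of 6 lists of cell type genes all differed between the stages without overlap. The summed normalized counts of 7 matched follicle cell genes, of 9 listed, lay between 90.2 and 179 in PG libraries and between 1888 and 2311 in PV libraries. Those of 12 oocyte genes, of 15 listed, lay between 307229 and 317279 in PG and between 126333 and 134067 in PV libraries. The oocyte sum came mostly from zp2.1, zp3b, buc, zar1 and zpcx. Of the 12 genes 9 were called as lower (edgeR quasi-likelihood test), where 44.3% of all well-expressed genes were. Among the 9, bmp15 lay at only -0.16 on the log2 scale. The germ cell gene ddx4 was called as higher, at 0.29, while gdf9 at -0.05 and dazl at 0.04 were not called. With libraries scaled by their totals instead, bmp15 came to 0.26, ddx4 to 0.70, gdf9 to 0.36 and dazl to 0.45. The other genes called as lower then lay between -1.29 (zar1) and -0.07 (ybx1). The sum of endothelial genes, 4 of 5 listed, was also higher in PV libraries (403 to 500 against 180 to 297 in PG). It came mostly from kdrl, which was not called, at 0.49. The genes cdh5 at 1.41, fli1 at 1.77 and tie1 at 1.35 were called as higher, with mean counts of only 90.5, 14.9 and 24.6. The sums of theca and stroma (6 of 7), blood (4 of 5) and leukocytes (4 of 5) were lower in PV, at 3564 to 3834 against 5666 to 5875, at 160 to 416 against 617 to 848 and at 119 to 134 against 151 to 200. The blood sum came mostly from hbaa1 and HBE1, called as lower at -1.37 and -1.23, while hbaa2 at 0.27 and alas2 at -0.37 were not called. The leukocyte sum came mostly from coro1a, the only gene of its list called as lower, at -0.52. The others, ptprc at 0.06, MPEG1 at 0.79 and lyz at -1.77, were not called. The theca and stroma sum came mostly from the steroidogenic enzyme gene cyp17a1, the only gene of that list called as lower. Of its 5 tested genes 4 were called as higher in PV follicles (edgeR quasi-likelihood test), where 32.7% of all tested genes were. They were col1a1a at 0.48, col1a2 at 2.35, dcn at 1.32 and acta2 at 2.30 on the log2 scale. Of the follicle cell genes, amh was at 0 in PG replicates 2 and 3 and fshr, the receptor for follicle-stimulating hormone, was at 0 in PG replicate 3. No marker gene was a member, and the part of cell composition in the members' values was not tested. In these bulk samples, fewer cells of a type and less RNA per cell cannot be told apart.

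The most constant gene was washc5 (ENSDARG00000101543), which encodes strumpellin, a subunit of the WASH complex that drives actin branching on endosomes. Its normalized counts were 1788, 1818 and 1796 in PG replicates 1 to 3 and 1844, 1797 and 1796 in PV replicates 1 to 3. The highest library exceeded the lowest 1.03-fold, the stages overlapped, and the standard deviation was 1.16% of the mean. A second subunit of the complex, washc2c (ENSDARG00000062532), which links it to endosomal membranes, ranked sixth. It measured 3693, 3590 and 3722 in PG and 3686, 3747 and 3675 in PV libraries, with PG replicate 2 lowest and PV replicate 2 highest.

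The other members of lowest spread worked in protein turnover, translation and the nucleus. The ubiquitin-conjugating enzyme variant ube2v2 (ENSDARG00000028198), a partner of the enzyme that builds signalling ubiquitin chains, measured 2502, 2486 and 2476 in PG and 2471, 2553 and 2462 in PV libraries. The p97 adaptor nploc4 (ENSDARG00000100487), which delivers ubiquitylated proteins to the p97 ATPase, measured 3861, 3987 and 3837 in PG and 3817, 3848 and 3846 in PV libraries. For ube2v2 the highest and the lowest value were both PV libraries, for nploc4 they were PG replicate 2 and PV replicate 1, and the stages overlapped in both. The delta subunit of the translation factor eIF2B, eif2b4 (ENSDARG00000014004), measured 1168, 1130 and 1153 in PG and 1153, 1129 and 1155 in PV libraries. The tRNA-modifying enzyme trmt12 (ENSDARG00000060338) measured 860, 880 and 875 in PG and 853, 868 and 850 in PV libraries, and its lowest and highest values were PV replicate 3 and PG replicate 2.

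Of the nuclear genes, qrich1 (ENSDARG00000019797), a transcriptional regulator of the endoplasmic reticulum stress response in mammals, measured 2914, 2990 and 2960 in PG and 2956, 2868 and 2938 in PV libraries. The scaffold attachment factor safb (ENSDARG00000020467), which binds chromatin and RNA, measured 3396, 3302 and 3382 in PG and 3365, 3446 and 3434 in PV libraries. The polycomb-associated chromatin reader l3mbtl2 (ENSDARG00000056079) measured 1343, 1369 and 1357 in PG and 1308, 1349 and 1342 in PV libraries. All 3 overlapped between the stages, as did ENSDARG00000098261, for which no symbol was found and which measured 712, 729 and 718 in PG and 699, 721 and 729 in PV libraries. Among these 10 genes the ratio of the highest to the lowest library ran from 1.03 to 1.05.

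**Figure D1:**
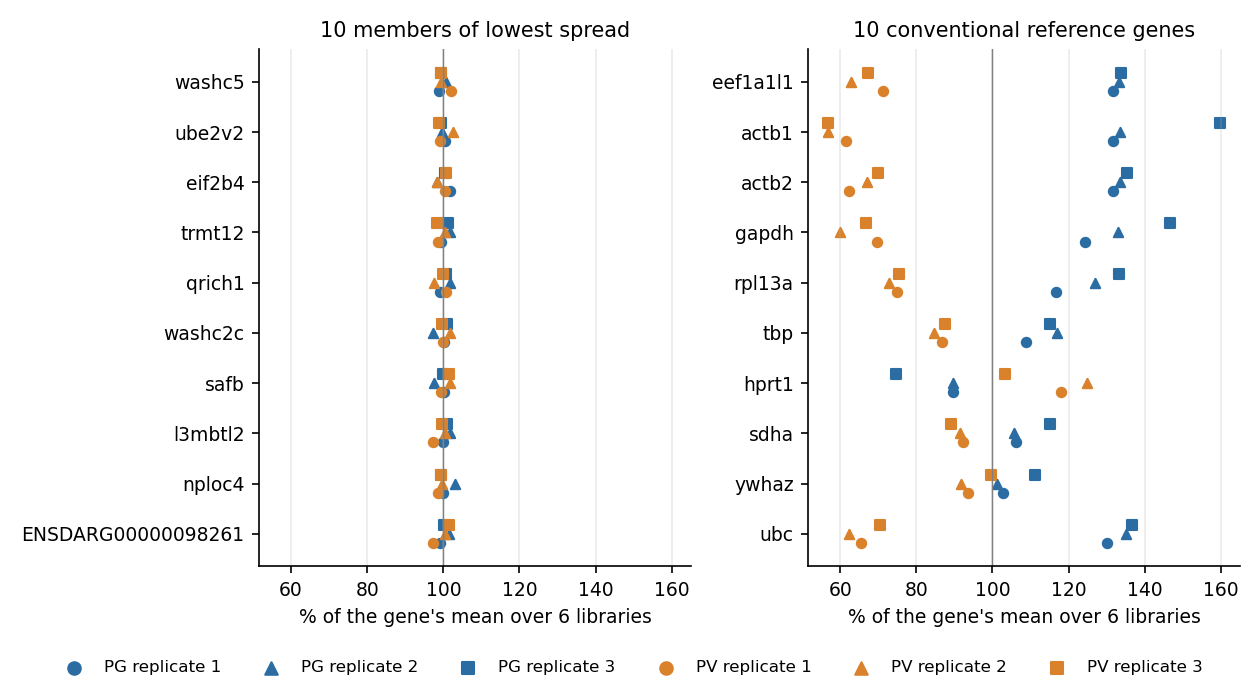
Normalized count of each library as a percent of the gene's mean over the 6 libraries, for the 10 members of lowest spread (left) and 10 conventional reference genes picked for display (right); blue marks PG and orange PV libraries, and each point is 1 library. The members' points stay within a highest-to-lowest ratio of 1.05, while eef1a1l1 (ef1a) runs from 36428 in PV replicate 2 to 77586 in PG replicate 3.

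Over the 200 members the standard deviation was between 1.16% and 3.27% of the mean, with a median of 2.70%, against a median of 13.3% over all 7320 well-expressed genes. The ratio of the highest to the lowest library was between 1.03 and 1.1 in the members, with a median of 1.08, and its median was 1.38 over all well-expressed genes. Below a spread of 5% lay 707 well-expressed genes and below 10% lay 2623, so the 200 members are the lower end of a larger group and not a separate class. At the edge of the choice the mitochondrial chaperone cofactor DNAJA3 and the complex I subunit ndufb3, ranked 199 and 200, each had a spread of 3.27%. Just outside, ranked 201 and 202, yif1b, a protein of the early secretory pathway, had 3.27% and yrdc, which takes part in tRNA modification, had 3.28%. At the level minimum, bola3, a factor of iron-sulfur cluster assembly with a mean of 526, was a member and so was tctn2, a transition zone protein of cilia with a mean of 592. The dynactin subunit dctn3, with a mean of 452 and a spread of 1.15%, and the deubiquitinase OTUB1, with a mean of 449 and a spread of 2.50%, fell below the minimum, as did 2 further genes of equally low spread, 4 in all.

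The spread that counting alone would give was computed from each gene's mean count and the size factors. This takes every deposited count as an independent event. The counts were derived from coverage of paired reads, so the true counting spread may be larger, and more genes may then lie below it. The computed spread was 2.25% of the mean in the median member and ran from 0.897% to 4.47%. In 69 of the 200 members, or 34.5%, the observed spread was smaller than that, as it was in 95 of all 7320 well-expressed genes. All 10 genes of lowest spread were among the 69. For washc5 the observed spread was 1.16% and counting alone gives 2.41%, and for eif2b4 the values were 1.34% and 3.03%. At this depth the order of such genes within the list was therefore not detectable beyond counting error. Among the 10 members of highest mean count, none had a spread below the computed one. Whether they vary beyond counting error was not tested.

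**Figure D2:**
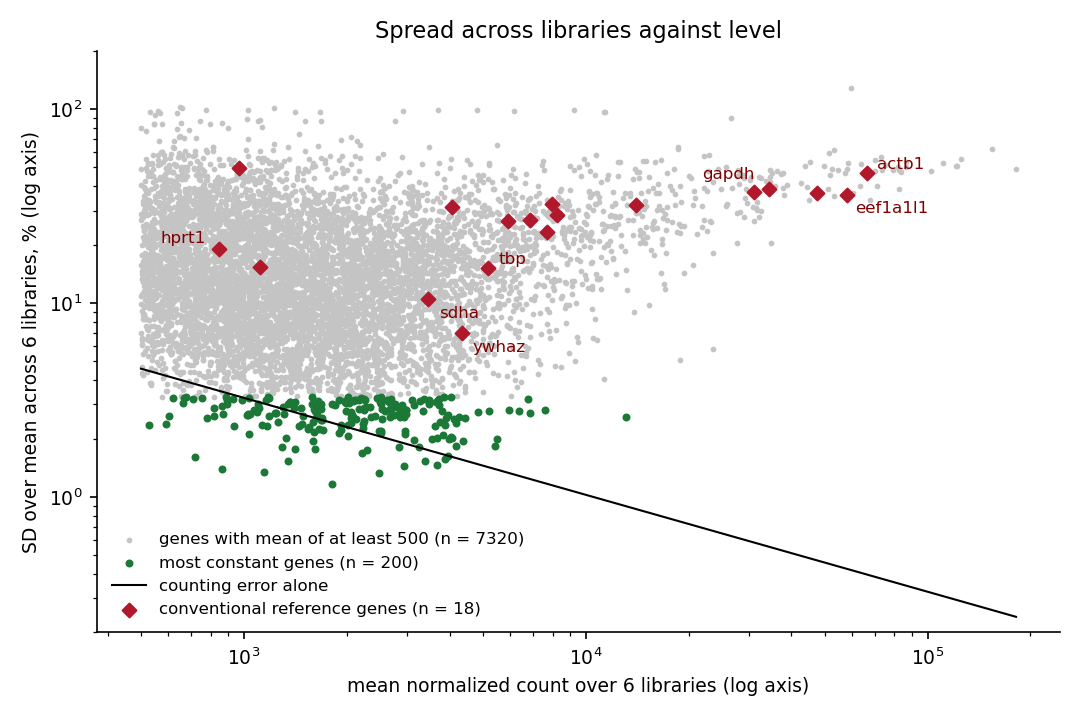
Standard deviation over mean across the 6 libraries, in percent, against the mean normalized count, both on log axes. Grey points are all 7320 genes with a mean of at least 500, and green points are the 200 members. Red diamonds are the 18 conventional reference genes above that mean. The line is the spread computed for counting alone, with every count taken as an independent event. The members reach 3.27% at most, with 69 under the line, and the lowest conventional gene, ywhaz, lies at 7.02%.

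The members' mean normalized counts ran from 526 to 13088, with a median of 2083 and quartiles of 1391 and 2967. These counts are not divided by transcript length, so their order is not an order of transcript number. Members made up 0.968% of the 2272 genes with a mean of 500 to 1000, 2.87% of the 2369 genes from 1000 to 2000 and 5.56% of the 1637 genes from 2000 to 4000. Their share was 2.69% of the 669 genes from 4000 to 8000 and 0.446%, or 1 gene, of the 224 genes from 8000 to 16000. No member was found among the 149 genes with a mean of 16000 or more. In that last group 146 genes, against 44.3% of all well-expressed genes, were lower in PV follicles at an adjusted p of 0.05 or less (edgeR quasi-likelihood test, Benjamini-Hochberg adjustment), and the median log2 difference was -1.07. The most highly counted transcripts of these follicles were thus mostly lower in PV libraries on this scale, and a reference gene of that count was not found among the constant ones.

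The member with the highest mean was RDH10 (ENSDARG00000012369), a retinol dehydrogenase of retinoic acid synthesis. It measured 13036, 13448 and 13368 in PG and 13220, 12522 and 12937 in PV libraries, and PV replicate 2 was the lowest of the 6 while the stages overlapped. Its spread was 2.58% and that computed for counting alone was 0.897%. The catalytic subunit of DNA polymerase delta, pold1 (ENSDARG00000027689), measured 7599, 7917 and 7704 in PG and 7299, 7484 and 7732 in PV libraries. The F-box protein gene fbxo34 (ENSDARG00000071259), which encodes a substrate adaptor of a ubiquitin ligase, measured 7007, 7010 and 6689 in PG and 6799, 6797 and 6431 in PV libraries. In both the stages overlapped, with the lowest value in a PV library.

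The Integrator subunit ints3 (ENSDARG00000016811), which acts in small nuclear RNA processing, measured 5713, 5999 and 5816 in PG and 6154, 6095 and 5993 in PV libraries. The replication fork protein gene timeless (ENSDARG00000078497) measured 5021, 4733 and 4807 in PG and 4761, 4983 and 4715 in PV libraries. The gene si:ch211-198a12.6 (ENSDARG00000074624) measured 6112, 6381 and 6557 in PG and 6483, 6574 and 6286 in PV libraries. In all 3 the stages overlapped, by the smallest margin in ints3, where only PG replicate 2 reached the PV values.

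In 4 of the 10 members of highest mean the 3 values of each stage did not overlap. The Golgi GTPase arf5 (ENSDARG00000070472) measured 7037, 7128 and 6902 in PG and 6740, 6652 and 6756 in PV libraries. The COPI coat subunit copb2 (ENSDARG00000038743), of vesicles that move from the Golgi to the endoplasmic reticulum, measured 5616, 5597 and 5615 in PG and 5380, 5411 and 5447 in PV libraries. Each PG value of these genes lay above each PV value, although the difference was a few percent. The ligase syvn1 (ENSDARG00000017842), which ubiquitylates misfolded proteins of the endoplasmic reticulum, measured 5261, 5226 and 5494 in PG and 5087, 5114 and 5192 in PV libraries. The lysophospholipid transporter MFSD2A (ENSDARG00000035909) measured 5349, 5409 and 5337 in PG and 5555, 5569 and 5439 in PV libraries, and was the only one of the 4 with PV above PG. Over all 200 members the stages did not overlap in 24, 11 with PV higher and 13 with PV lower, where 77.5% of all well-expressed genes did not overlap. The choice used these values, and nothing is read from that difference.

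In the model fitted to all 15899 tested genes (edgeR quasi-likelihood test with TMM scaling), the members' log2 fold changes from PG to PV ran from -0.07 to 0.08, with a median of -0.01 and standard errors from 0.03 to 0.06. The choice used this contrast, so nothing is read from the absence of calls among the members (0 of 200 at an adjusted p of 0.05 or less with edgeR or with DESeq2, and 0 at an unadjusted p under 0.05 with edgeR). Of all tested genes 62.5% were called, 32.7% as higher and 29.9% as lower in PV follicles, and of the well-expressed genes 73.3%, 29.0% as higher and 44.3% as lower. These shares are given as the background of a choice that used the same contrast. The lowest members were the mitochondrial cysteinyl-tRNA synthetase cars2 and the exocyst subunit exoc6b, both at -0.07. The highest were the cleavage and polyadenylation factor cpsf4 at 0.08 and the deubiquitinase usp11 at 0.07. The normalized counts of cpsf4 (ENSDARG00000020217) were 1329, 1316 and 1352 in PG and 1397, 1415 and 1405 in PV libraries, so a shift of this size separated the stages without a call.

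The spread within a stage was 2.53% in the median member and 4.96% in the median well-expressed gene. A low spread between replicates was not particular to the members. Among the 7320 well-expressed genes, 2121 had a within-stage spread no larger than the highest member's, 1921 of them non-members, and 574 of these differed between the stages by 0.5 or more on the log2 scale, 141 higher and 433 lower in PV follicles. A further non-member, the polyadenylation factor gene wdr33, lay below that size of difference but also had close replicates. It measured 3930, 3869 and 3910 in PG and 2851, 2896 and 2931 in PV libraries, a within-stage spread of 1.05% with a log2 fold change of -0.43.

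By function, sorted by hand after the members were known, 31 members belonged to ubiquitin, UFM1 and protein quality control, 28 to mitochondria, peroxisomes and metabolism, 24 to vesicle trafficking and endosomes, and 24 to chromatin and transcription factors. A further 20 acted in RNA synthesis, processing and decay, 16 in DNA replication, repair and cell division, 14 in translation and ribosome or tRNA assembly, and 14 were kinases, phosphatases and signalling proteins. The remaining 29 were not grouped. The median log2 fold change of these groups lay between -0.02 and 0.01 except for translation and ribosome or tRNA assembly, at -0.05.

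The genes of protein turnover included psmd7, a subunit of the proteasome lid, the ubiquitin ligase scaffold CUL5 and the ubiquitin-conjugating enzyme UBE2O. CUL5 (ENSDARG00000069742) measured 2232, 2116 and 2132 in PG and 2087, 2132 and 2087 in PV libraries. The chaperone calr (ENSDARG00000076290), or calreticulin, which folds glycoproteins in the endoplasmic reticulum, measured 2718, 2706 and 2792 in PG and 2639, 2845 and 2767 in PV libraries. The stages overlapped in both.

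Membrane traffic was represented by the COPII coat subunit sec23b (ENSDARG00000019360), which carries cargo out of the endoplasmic reticulum and measured 4256, 4263 and 4169 in PG and 4183, 4179 and 3985 in PV libraries. The proton pump subunit atp6v0d1 (ENSDARG00000069090) of endosomes and lysosomes measured 1943, 1954 and 1861 in PG and 1939, 1953 and 1861 in PV libraries, in each stage with replicate 3 lowest. The sorting nexin SNX9, which acts in clathrin-mediated endocytosis, and vps26a, a subunit of the retromer that recycles membrane proteins from endosomes, had means of 2522 and 2518 and spreads of 3.02% and 3.27%.

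Nuclear members included the polycomb ring finger gene BMI1 (ENSDARG00000006010), which measured 3773, 3725 and 3819 in PG and 3953, 3880 and 3821 in PV libraries, all PV values lying above the PG values by a small margin. The de novo DNA methyltransferase gene dnmt3bb.2 (ENSDARG00000057830) measured 2495, 2434 and 2442 in PG and 2306, 2444 and 2431 in PV libraries, with PV replicate 1 lowest. The Mediator subunit med25, which bridges activators to RNA polymerase II, had a spread of 2.50%. Of the signalling members, PPP4C (ENSDARG00000076439), the catalytic subunit of protein phosphatase 4, measured 4071, 4006 and 4113 in PG and 4087, 4061 and 3887 in PV libraries. It combined one of the higher means with a spread of 2.03%.

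In translation and mitochondria, EIF2S1 (ENSDARG00000005827), the subunit of eIF2 that stress kinases phosphorylate, measured 3508, 3689 and 3826 in PG and 3730, 3686 and 3825 in PV libraries. Its spread was 3.17%, with PG replicate 1 lowest. The mitochondrial ribosomal protein mrpl32, the ATP synthase subunit atp5pd and the chaperone cofactor DNAJB12 of the endoplasmic reticulum had spreads of 3.03%, 2.85% and 3.14%.

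Other subunits of the complexes to which members belong, and other genes of the YTH family, which is not a complex, were set beside them. These 8 sets were chosen after the values were seen. Of their 36 tested genes that were not members, 24 were called (66.7%), 6 higher and 18 lower. Of all well-expressed genes 73.3% were called, 29.0% as higher and 44.3% as lower. Some of the 36, such as ythdc2 and vps26b, lay under the level minimum, and of all tested genes 62.5% were called. In the WASH complex, washc5 and washc2c were members, while washc4 had a log2 fold change of 0.46 (edgeR quasi-likelihood test, adjusted p = 0.00309) and washc3 of -0.12 (adjusted p = 0.426). In the COPI coat copb2 was a member, while copa was at -0.51 and copb1 at -0.41, both called, and copz2 was higher at 0.84. The coat genes copz1, at -0.01, and ARCN1, at 0.12, were not called. Of the subunits of eIF2 and its exchange factor eIF2B, EIF2S1 and eif2b4 were members, eif2s2 was at -0.55, eif2b5 at -0.55 and eif2b2 at -0.37, all called, and eif2b1 at -0.07 and eif2b3 at -0.12 were not. In the outer membrane import machinery of mitochondria the pore gene tomm40 and the receptor gene TOMM70 were members, and of 8 other genes 2 were higher and 5 lower, from -0.65 in tomm20a to 0.67 in tomm34, which is a cytosolic cochaperone. Of the YTH readers of methylated mRNA, ythdf1 and ythdf3 were members while ythdf2 at -0.11, ythdc1 at 0.14 and ythdc2 at -0.02 were not called, with edgeR adjusted p-values of 0.119, 0.0749 and 0.941. In the retromer, the THO complex and p97 with its adaptor, 3 of 3, 3 of 5 and 1 of 2 other genes were called. Under scaling by library total, which adds about 0.42 to each log2 value, copb1 came to 0.01, copa to -0.10 and washc5 to 0.42.

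**Figure D3:**
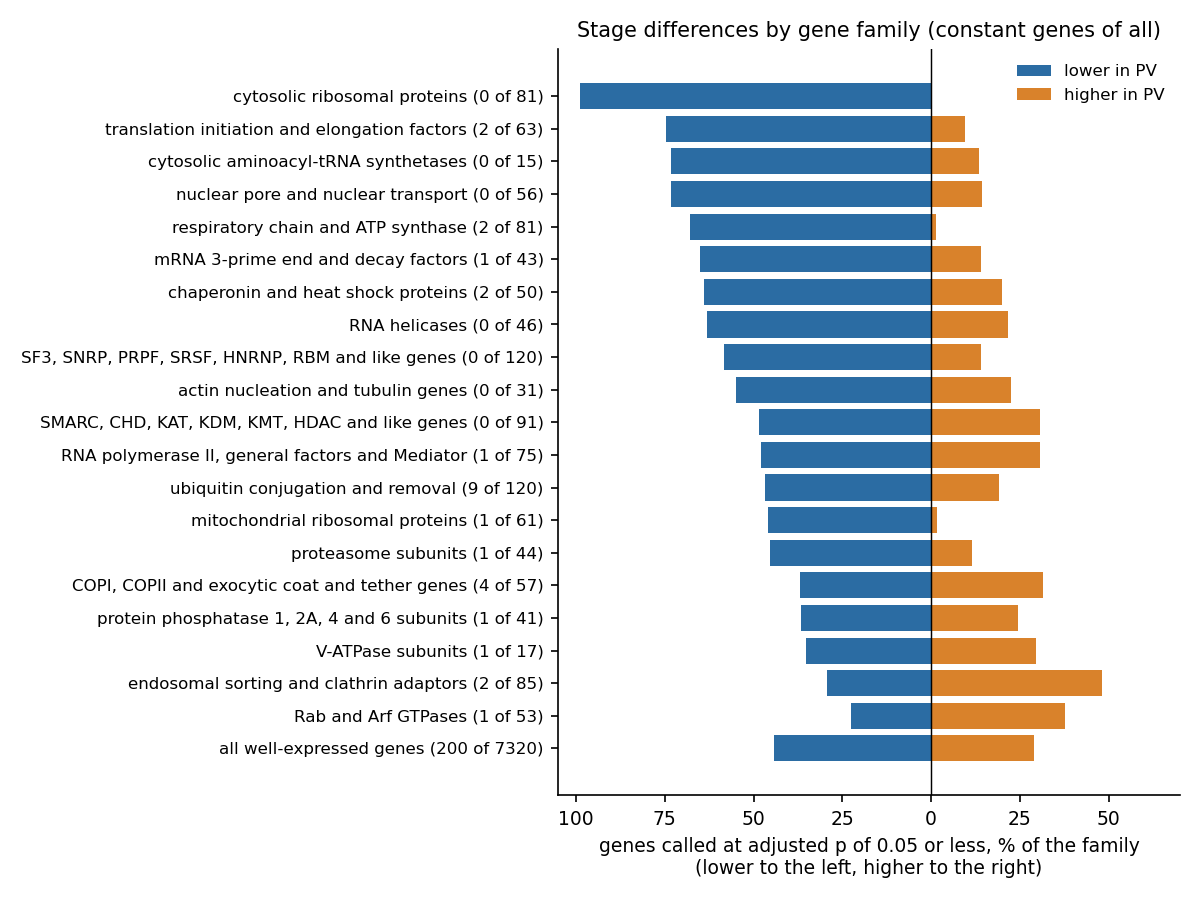
Share of each gene family called lower (blue, to the left) or higher (orange, to the right) in PV follicles at an adjusted p of 0.05 or less with TMM scaling, in percent of the family's well-expressed genes; the brackets give members of all, and the lowest bar shows all 7320 genes. Cytosolic ribosomal proteins hold no member and 80 of 81 are lower in PV follicles with this scaling, 61 of them with scaling by library total.

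Set against 20 gene families defined by the letters of gene symbols, which leave out genes of like function with other names, 28 members fell within the 1227 family genes, or 2.28%, where 2.73% of all well-expressed genes are members. The share was 7.50% in ubiquitin conjugation and removal, with 9 of 120 genes, and 7.02% among COPI, COPII and exocytic genes, with 4 of 57. No member was found among 120 splicing genes named SF3, SNRP, PRPF, SRSF, HNRNP, RBM or the like, 91 chromatin genes named SMARC, CHD, KAT, KDM, KMT, HDAC or the like, 81 cytosolic ribosomal proteins, 56 nuclear pore and transport genes, 46 RNA helicases, 31 actin nucleation and tubulin genes and 15 cytosolic aminoacyl-tRNA synthetases. Other genes of these functions were members, among them the splicing factor sart1, the chromatin genes actl6a, baz1a, ash2l and BMI1, and the mitochondrial synthetase genes nars2 and cars2. The genes washc5 and washc2c, of the complex that drives actin branching on endosomes, were members too. These shares describe the lists and were not tested.

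The family changes depended on the scaling. Cytosolic ribosomal proteins had a median log2 fold change of -0.70 with TMM, -0.28 with library totals and 0.29 when libraries were divided by ef1a. Translation factors had medians of -0.44, -0.02 and 0.55 with the same 3 scalings, and respiratory chain genes of -0.34, 0.07 and 0.65. The splicing genes of the list had medians of -0.23, 0.18 and 0.76. The members lay at -0.01, 0.41 and 0.98. A change of scale shifts all genes nearly alike, so the order of the families and members was fixed in advance and is no result.

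Since the choice used all 6 libraries, it was made again 6 times with 1 library left out, and the left-out library was then read. From 5 libraries, 200 genes were chosen whose median spread there was between 2.36% and 2.54%. In the library not used, between 82.5% (PG replicate 3) and 96.0% (PG replicate 2) of the 200 lay within 10% of the mean of the other 5. Over all genes with a mean of at least 500 in those 5 libraries the share was between 33.7% and 40.7%. The 5 libraries always held both stages, so the choice had already left out genes that differ between the stages. The distance from all genes follows in part from that and is not read as support. The median absolute log2 difference was between 0.05 and 0.06 for the chosen genes and between 0.18 and 0.22 for all. The least deeply sequenced library, PG replicate 3, gave the lowest share.

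Single genes could still miss by much more. The largest log2 difference among the 200 was 0.88 in PG replicate 1 (rhno1), 0.31 in PG replicate 2 (prim2), 0.64 in PG replicate 3 (armc5), 0.28 in PV replicate 1 (amdhd2), 0.46 in PV replicate 2 (nip7) and 0.27 in PV replicate 3 (rhbdl2). When the 10 genes of lowest spread in the 5 libraries were combined as a geometric mean, the left-out library differed by between -0.06 and 0.04. For eef1a1l1 the same difference was between 0.49 and 0.52 in PG libraries and between -0.78 and -0.57 in PV libraries. Between 129 and 152 of the 200 original members were chosen again without 1 library, and 95 were chosen in all 6 repeats. The gene washc5 was among the 10 of lowest spread in every repeat. This reading holds each library on the deposited scale, whose factors were computed from all 6 libraries. The values of eef1a1l1 restate its stage difference, since the other 5 libraries held both stages.

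**Figure D4:**
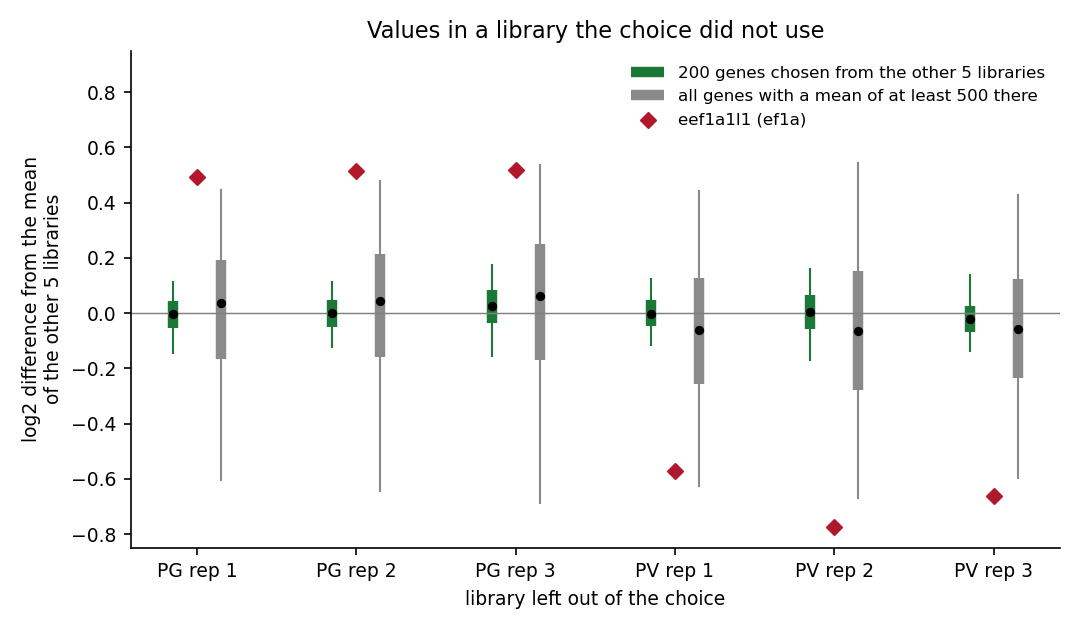
Log2 difference of the left-out library from the mean of the other 5, for 200 genes chosen from those 5 (green) and for all genes with a mean of at least 500 there (grey); thick bars are the quartile range of the genes, thin lines the 5th to 95th percentile, black dots medians and red diamonds eef1a1l1. The chosen genes have a median absolute difference of 0.05 to 0.06, and eef1a1l1 lies at 0.49 to 0.52 in PG and -0.78 to -0.57 in PV libraries. The other 5 libraries hold both stages, so a stage difference shows in these values.

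The conventional reference genes were not among the members. Of 26 symbols of commonly used zebrafish reference genes, 23 were matched and 18 reached the level minimum. Their spread across the 6 libraries was between 7.02% and 67.4%, and the best placed, ywhaz, ranked 1516 by spread. With TMM scaling 22 of the 23 were called (edgeR quasi-likelihood test, Benjamini-Hochberg adjustment over all genes), 16 lower and 6 higher in PV follicles. Of all tested genes 29.9% were called as lower and 32.7% as higher, and of the well-expressed genes 44.3% and 29.0%. At higher counts nearly all genes were called as lower, 210 of 224 with a mean of 8000 to 16000 and 146 of 149 above. A fall of the abundant panel genes was thus not particular to them. The exception was tuba1a, a tubulin, at -0.33 (adjusted p = 0.0683) with a mean count of 116.

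The gene ef1a, to which the study's RT-qPCR levels were normalized, is listed in the tables as eef1a1l1 (ENSDARG00000020850) and encodes the factor that brings aminoacyl-tRNA to the ribosome. It measured 76483, 77407 and 77586 in PG and 41320, 36428 and 39048 in PV libraries. Every PV value lay below every PG value, and the spread within a stage was 3.07%. The log2 fold change was -0.99 with a standard error of 0.05 (edgeR quasi-likelihood test, adjusted p = 6.53e-08) and -0.57 with library totals. Relative to the members it was -0.98. The members were chosen for being flat on the deposited scale, so this last value restates that scale and is no separate reading. The primers of the study's ef1a assay are shown because this gene sets the scale of its RT-qPCR values. They are given as the study's primer table lists them, which states no direction, and no part is marked.
ef1a primer 728: ggctgactgtgctgtgctgattg
ef1a primer 729: cttgtcggtgggacggctagg

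The other abundant conventional genes moved with ef1a. The cytoskeletal actin actb2 (ENSDARG00000037870) measured 62477, 63425 and 64256 in PG and 29601, 31844 and 33194 in PV libraries, a log2 fold change of -1.01. The glycolytic enzyme gene gapdh (ENSDARG00000043457) measured 42717, 45697 and 50420 in PG and 23918, 20639 and 22940 in PV libraries, a change of -1.04. In both, no PV library reached a PG library. The values were -1.28 for actb1 and -1.02 for the ubiquitin gene ubc. The ribosomal protein genes rpl13, rpl13a, rpl8, rps18 and rplp0 lay at -0.71, -0.76, -0.71, -0.80 and -0.85, and the cyclophilins ppiaa and ppiab at -0.87 and -0.61. All of these were called as lower with TMM and with library totals, while with division by ef1a only actb1 remained called as lower, at -0.29. The actin, cyclophilin and ubiquitin genes have near-identical copies between which the counting could have split reads.

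Conventional genes of lower count differed less or rose. The TATA-binding protein gene tbp (ENSDARG00000014994) measured 5628, 6057 and 5951 in PG and 4493, 4382 and 4528 in PV libraries, a log2 fold change of -0.40 (edgeR adjusted p = 1.47e-05). The succinate dehydrogenase subunit sdha was at -0.26 and the kinase regulator mob4 at -0.36, both called. None of these 3 genes stayed lower with library totals, where they came to 0.02, 0.16 and 0.05. Only sdha was then called, as higher (edgeR quasi-likelihood test, adjusted p = 0.0109). The 14-3-3 protein gene ywhaz (ENSDARG00000032575) measured 4481, 4405 and 4841 in PG and 4070, 3993 and 4336 in PV libraries. Replicate 3 was the highest of each stage, the highest PV value lay just below the lowest PG value, and the log2 fold change was -0.15 (edgeR adjusted p = 0.0246). That call was lost without PG replicate 3 (adjusted p = 0.0843), PV replicate 1 (0.0785) or PV replicate 2 (0.0841), and the value was 0.27 with library totals.

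Conventional genes that were higher in PV follicles included 4 that were so with TMM, library totals and ef1a alike. The purine salvage enzyme gene hprt1 was at 0.43 with TMM and the lysosomal enzyme gene gusb at 0.62, and the beta-2-microglobulin genes b2m and b2ml were at 1.05 and 1.92. Of these, hprt1 (ENSDARG00000008884) reached a mean of 500. It measured 759, 759 and 634 in PG and 1000, 1057 and 875 in PV libraries, and every PV value lay above every PG value. The follicle cell markers rose in the same libraries, and their part in these values was not tested.

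The set of constant genes was itself fixed by the scaling. With the TMM factors of edgeR, 186 of the 200 genes were chosen again, with upper-quartile factors 147, and with median ratios from the 7320 well-expressed genes alone 45. The last list had a median log2 ratio of PV to PG of -0.09 on the deposited scale, which is also the median change of the well-expressed genes with TMM. With library totals and with ef1a as the scale no member was chosen again. The 200 genes most constant by library totals had a median log2 ratio of -0.41 on the deposited scale, from -0.50 to -0.33, and were led by exosc10, a subunit of the RNA exosome, and copb1. Those most constant by ef1a lay at -0.96, from -1.16 to -0.81. Each list was thus made of genes near 1 value of change, which the scaling set to 0.

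On the deposited scale the members lay near that value for all genes. The 15402 genes with a count in every library, from which such factors can be computed, had a median log2 ratio of -0.0028. That is a ratio of mean normalized counts. In the fitted model the members' median was -0.0058 with DESeq2 size factors and -0.0076 with TMM. With TMM the well-expressed genes lay lower, at -0.09, and 57.6% of them were below the members' median. With library totals the median of all tested genes moved from 0.03 to 0.45, and that of the members to 0.41, from 0.34 to 0.49. All 200 members were then called as higher in PV follicles, as were 58.2% of all tested genes and 65.5% of the well-expressed ones. With ef1a as the scale the median of all genes was 1.02 and that of the members 0.98, and again all 200 were called as higher, with 82.3% of all tested genes. With upper-quartile factors 1 member, arf5, was called, at -0.09. The members took between 1.84% and 1.86% of the counts of PG libraries and between 2.43% and 2.48% of those of PV libraries. These shares are the scaling by library total in another form and no separate reading. Counts give shares of a library, and the amount of RNA per follicle was not measured, so these values do not tell which of the scalings holds per follicle or per cell.

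**Figure D5:**
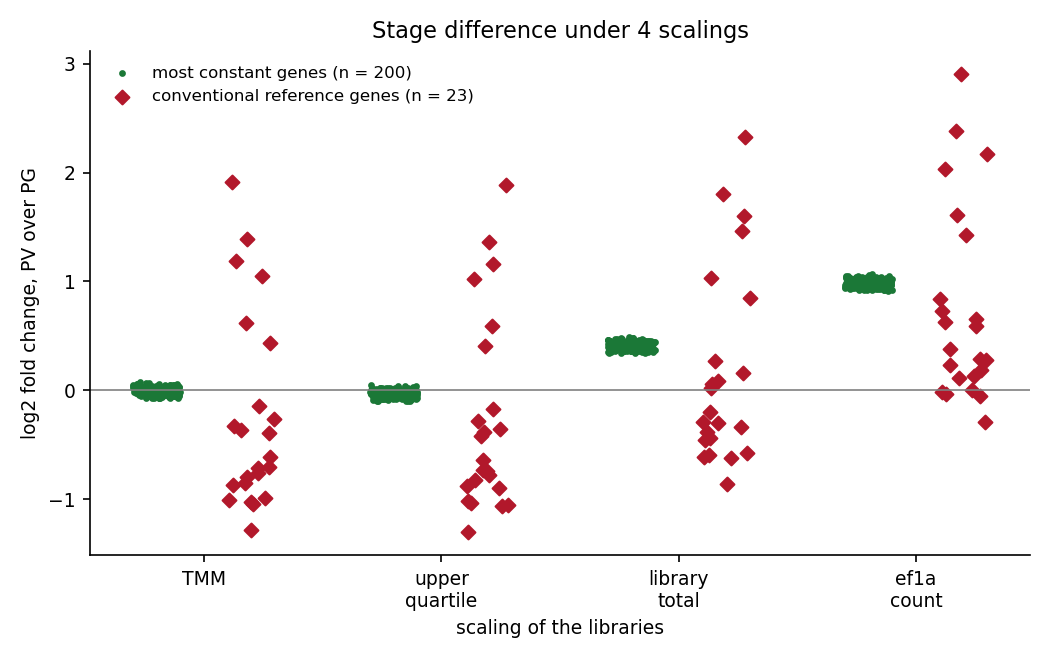
Log2 fold change of PV over PG for the 200 members (green points) and 23 conventional reference genes (red diamonds) when libraries are scaled by TMM, upper quartile, library total or the ef1a count; each point is 1 gene, spread sideways for visibility. The members stay within a narrow band that moves from a median of -0.01 to -0.03, 0.41 and 0.98, and the conventional genes spread from -1.28 to 1.92 with TMM.

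The differences among the members did not depend on the scaling. Ratios between members are the same on every scale. Which members were chosen did depend on it, and 12 were chosen under all alternatives except library totals and ef1a. They were l3mbtl2, b3galt2, map7d3, copb2, rpa2, bms1, ippk, ist1, thoc6, sec23b, erlec1 and MTMR7. They include the single-stranded DNA binding protein subunit rpa2, the mRNA export factor thoc6, the ribosome assembly GTPase bms1, the membrane scission factor ist1 and the inositol phosphate kinase ippk. Of the 10 members of lowest spread only l3mbtl2 was among them. The log2 fold changes of the 12 ran from -0.053 (copb2) to -0.025 (rpa2) in the main model. The factors from well-expressed genes alone, whose list was centred at -0.09 and shared 45 members, had to choose them too. The 12 thus lie between the centres of these scales, and steadier expression is not read from their naming.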

How the data were processed

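RNA from 6 samples of AB wild-type zebrafish follicles, 3 PG and 3 PV from the same pools of fish, had been sequenced as paired reads. The authors aligned reads to GRCz10 with TopHat2 and deposited raw counts per Ensembl gene made with StringTie and its prepDE script, which derives counts from coverage. The second deposited table holds normalized counts, a signal in which the counts of a library are divided by its DESeq2 size factor. The library kit is named differently in the labels and the methods, so the strand setting is not known, and overlapping genes may share reads.

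The constant genes were chosen on the deposited normalized counts. Stage differences were tested on the deposited raw counts with edgeR 4.0.16 (filterByExpr with minimum count 10 and minimum total 15, TMM, quasi-likelihood test of stage alone, Benjamini-Hochberg adjustment) in R 4.3.3 with limma 3.58.1, and DESeq2 1.42.0 was an alternative. The fits were checked on simulated counts in which few genes changed, as many up as down. That check does not bear on the choice of scaling. For the counting spread, the mean of 1 over the size factors was divided by the gene's mean, and the square root of the quotient was taken. That takes every count as an independent event, which counts from coverage of paired reads need not be. Tables and plots used numpy 2.4.6, pandas 2.3.3 and matplotlib 3.10.9.

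The depth was 14492086 to 36603108 counts per library, and 3 counts equal between 8.2e-06% and 2.07e-05% of a library. Counting spread and these floors cover counting error only. Replicates differed by more than sampling noise and were counted separately. Each library comes from a pool of 3 fish, and each pool gave both PG and PV follicles. The main test treats the 6 libraries as independent, so its p-values measure the spread between libraries of a stage.

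Alternatives were other scalings, level minimums, measures of spread, list sizes, tests, no filter, a replicate block, and leaving out each library in turn. The members, families, panel, complexes and YTH readers were chosen with earlier results of these data known. Named genes are the 10 members of lowest spread, the 10 of highest mean, up to 3 of lowest spread per family, the matched panel genes (some are not reported here by name) and those at the edges of the choice, and a few others (calr, BMI1, dnmt3bb.2, cars2, usp11, wdr33, genes of the complexes, the largest misses in left-out libraries and the members kept under most alternatives) were chosen after their values were seen. Sequences of promoters and proteins and transcript lengths were not used here.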

Additional observations from a re-analysis of the deposited data

How the results depend on the processing

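Of the 200 members, 0 were chosen again with library totals, 0 with ef1a as the scale and 45 with factors from well-expressed genes alone, and a list of 100 genes held 100 of them by construction. Leaving out 1 library kept between 129 (without PV replicate 2) and 152. The members' median log2 fold change was -0.01 in the main model, 0.41 with library totals, 0.98 with ef1a, and between -0.0140 and -0.00687 when 1 library was left out. The main model called 9943 genes, 5192 higher and 4751 lower, and every alternative stayed within 1.5 times that count, from 8992 when 1 library was left out to 13505 with ef1a. The split moved with the scale, to 9257 higher and 1728 lower with library totals and to 13077 higher with ef1a. In the reference panel, library totals moved tbp to 0.019, sdha to 0.16, tuba1a to 0.088, mob4 to 0.054 and ywhaz to 0.27. Of these, sdha and ywhaz were called as higher, and tbp, tuba1a and mob4 were not called. With ef1a as the scale the values were 0.28 for rpl13, 0.23 for rpl13a, 0.27 for rpl8, 0.19 for rps18, 0.14 for rplp0, 0.59 for tbp, 0.73 for sdha, 0.66 for tuba1a, 0.12 for ppiaa, 0.38 for ppiab, 0.62 for mob4 and 0.84 for ywhaz. These changes of sign follow from the construction of the scales, which shift all genes alike. Between 21 and 22 panel genes were called when 1 library was left out. Libraries with the same number did not deviate together, with correlations across 12229 genes of -0.01, -0.01 and 0.02, against -0.05 to 0.07 for other pairs, and not every library correlated best with that of its own number. With the replicate number as a block 9397 genes and 22 panel genes were called and the members' median was -0.01, so the block changed no call of the panel. For 69 of the 200 members the spread was smaller than that computed for counting alone, so their order was not read. The members above that value were not tested against counting error, and they may lie within it too.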
